A study of Mus musculus with 4 samples.

Results

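Integrins, the adaptors of focal adhesions, and the dystrophin-sarcoglycan complex form the links between the cytoskeleton of a heart muscle cell and the matrix around it. The 33 genes described here were taken from a list of symbols matched, with synonyms, to the array's probe annotation, by a rule that uses no measured value, although the list was drawn up with earlier results of these data known. They comprised 10 integrin genes (with Itgb1bp2, the integrin-binding chaperone melusin), 15 adaptor genes and 8 genes of the dystrophin-sarcoglycan complex, out of 16390 genes named on the array. A probe was paired with 31 of the 33 (1 each), and 30 had a value on all 4 arrays, so each gene rests on the reading of a single probe.

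Integrins are heterodimers of an alpha and a beta subunit that bind laminin, collagen or fibronectin outside the cell. Inside the cell they are tied to actin by talin, vinculin and the complex of integrin-linked kinase (Ilk), PINCH (Lims1, Lims2) and parvin. In parallel, dystroglycan binds laminin and passes the link through dystrophin to actin, with the sarcoglycans alongside in the membrane. In cardiac muscle both links lie over the Z-discs, in costameres, where load is carried between sarcomere and matrix.

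Total RNA of the left ventricle of male C57BL/6 mice aged 14 weeks was measured on 4 arrays, 1 for each group. The groups were STIM1 KO mice after transverse aortic constriction (TAC), STIM1 KO mice after sham surgery, wild-type (WT) mice after TAC and WT mice after sham surgery, written below as STIM1KO TAC, STIM1KO sham, WT TAC and WT sham. STIM1 senses the calcium store of the endoplasmic reticulum and gates Orai channels, and TAC is a banding of the aortic arch that loads the left ventricle with pressure. Surgery was done at 10 weeks of age over a wire of 0.3 mm and the hearts were taken 4 weeks later. The labels give no promoter, Cre or breeding scheme for the STIM1 KO and do not say how many mice gave the RNA of an array. The average heart weight to body weight values in the labels, with no unit, were 4.9 for STIM1KO TAC, 4.5 for STIM1KO sham, 6.7 for WT TAC and 4.1 for WT sham.

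Intensities given below are quantile-normalized between arrays, and differences are in log2 units, so that 0.58 is 1.5-fold and 1 is 2-fold. With 1 array per group there is no replicate and no test was made, so every difference compares arrays. The counts below refer to genes passing a filter, a mean log2 intensity of at least 4.87 (an intensity of 29.3), which 19 of the 30 measured members and 7020 of 14039 genes met. As a gauge of the error of a probe, 50 genes had 2 probes above that level. Both probes of a gene were read on the same arrays, so their disagreement leaves out variation between mice or RNA samples. From the disagreement of those pairs, the SD of a single probe's difference was 0.26 for WT TAC against WT sham and 0.43 for STIM1KO TAC against STIM1KO sham. It was 0.29 for STIM1KO sham against WT sham and 0.38 for STIM1KO TAC against WT TAC. The SD across all genes passing the filter was of the same size in these comparisons, at 0.25, 0.42, 0.29 and 0.42 in the order just given. Of the pairs with a probe at 1.5-fold, both probes were there in the same direction in 1 of 4 between the WT arrays, 2 of 15 between the STIM1KO arrays, 0 of 4 between the sham arrays and 1 of 14 between the TAC arrays. Most differences of 1.5-fold in these pairs were thus not matched by the second probe. The STIM1KO TAC array stood apart, with Pearson correlations across genes of 0.963 to 0.974 with the other 3 arrays, which correlated at 0.987 to 0.990 with each other. The differences that do not involve it are WT TAC against WT sham and STIM1KO sham against WT sham.

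Stim1 itself, the targeted gene, read 13.8 on STIM1KO TAC, 20.7 on STIM1KO sham, 33.9 on WT TAC and 41.6 on WT sham. Both STIM1KO arrays were lower than both WT arrays, and neither lacked signal. Stim1 lay below the filter level, and its differences, 2.46-fold lower in STIM1KO between the TAC arrays and 2.01-fold lower between the sham arrays, were matched or exceeded in size by 3.26% and 4.76% of the genes in that dim range. Its position relative to the deleted sequence is unknown here, so a signal on the STIM1KO arrays checks the labels only in part. Cardiac muscle markers were bright on all 4 arrays, with Tnnt2 at 58086 on STIM1KO TAC, 38715 on STIM1KO sham, 38715 on WT TAC and 33602 on WT sham. Of 10 such markers, 9 were measured on every array, 8 of them above the filter level, and Ryr2 was dim at 2.77 to 5.57.

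Of the 19 members passing the filter, 5 reached 1.5-fold in some comparison: Svil, Itgb1, Itgb5, Ilk and Dag1. The share of all genes reaching it in any comparison was not computed, and shares for each comparison are given below. Svil encodes supervillin, an actin- and myosin-binding protein of costameres, and had the widest range of the 19, 2.95-fold. Of all 7020 genes, 0.641% had a range at least as wide. Among the 19, Ilk followed at 1.98-fold (6.64% of genes), Itgb1 at 1.80-fold (11.3%), Itgb5 at 1.77-fold (12.5%) and melusin at 1.57-fold (24.3%). At the other end, talin 1 (Tln1) stayed within 1.06-fold and alpha-sarcoglycan (Sgca) within 1.08-fold, ranges that 99.2% and 98.4% of genes exceeded or matched.

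**Figure D1:**
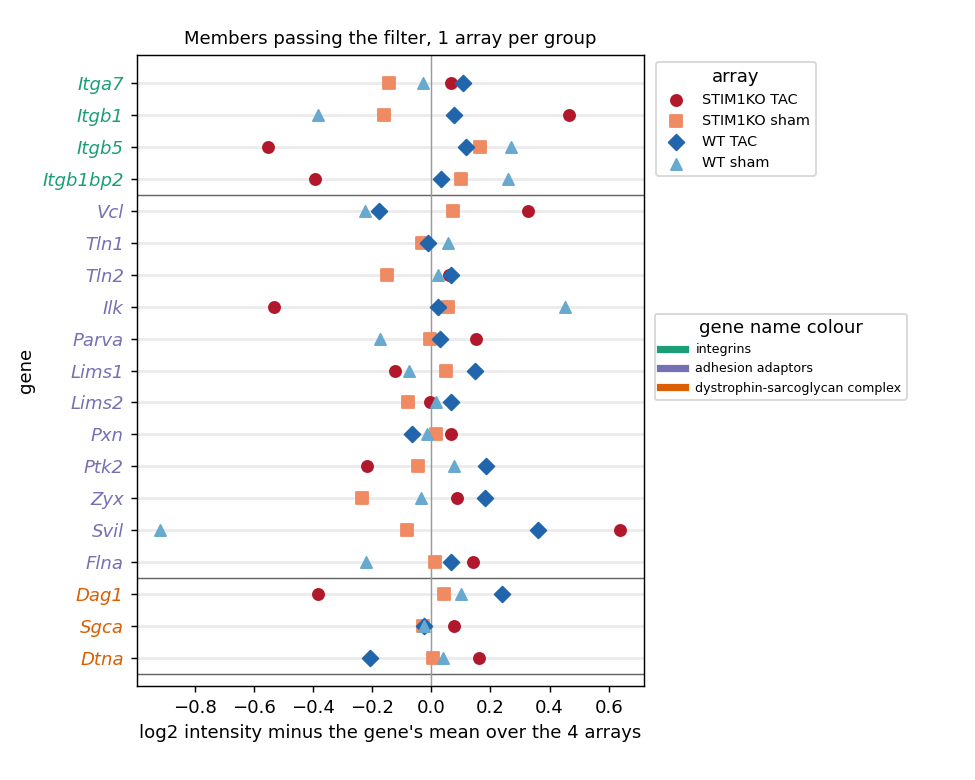
Log2 intensity minus the gene's own mean over the 4 arrays (horizontal axis) for the 19 members passing the filter, with 1 marker per array and gene names coloured by group. Svil spreads over 2.95-fold with WT sham lowest, the STIM1KO TAC array is lowest for Itgb5, Itgb1bp2, Ilk and Dag1 and highest for Itgb1 and Vcl, and Tln1, Lims2, Pxn and Sgca lie close together.

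In the order of the arrays, 8 of the 19 members had their highest value on STIM1KO TAC (42.1%, against 37.5% of all genes passing the filter) and 7 on WT TAC (36.8%, against 16.9%). WT sham held the highest value of 4 (21.1%, against 26.5%) and STIM1KO sham of none (0%, against 19.2%). Of the 12 adaptors, 5 were highest on STIM1KO TAC and 5 on WT TAC. The lowest value lay on STIM1KO TAC for 6 members (31.6%, against 36.2% of all genes), on STIM1KO sham for 6 (31.6%, against 18.6%), on WT sham for 5 (26.3%, against 26%) and on WT TAC for 2 (10.5%, against 19.2%). With each array centred on its median, 3 members in place of 6 were lowest on STIM1KO sham and 8 in place of 6 on STIM1KO TAC, while STIM1KO sham held no highest value under centring or with values as deposited.

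Between WT TAC and WT sham, 1 of the 19 members was at or beyond 1.5-fold (5.26%), Svil, which was higher. Among all genes the share was 2.85%, made up of 1.55% higher and 1.3% lower. For STIM1KO TAC against STIM1KO sham it was 4 of 19 (21.1%), against 14.4% of all genes. Higher were Svil and Itgb1 (2 of 19, against 7.31%), and lower were Itgb5 and Ilk (2 of 19, against 7.11%). STIM1KO sham against WT sham gave 1 of 19 (5.26%), Svil, which was higher, against 3.96% of all genes either way, 1.23% higher and 2.74% lower. STIM1KO TAC against WT TAC gave 2 of 19 (10.5%), Itgb5 and Dag1, both lower, against 14.5% of all genes either way, 6.31% higher and 8.22% lower. Svil between the WT arrays, at 1.28, stands beside a single-probe SD of 0.26 and Svil between the sham arrays, at 0.84, beside 0.29. These SDs hold no variation between mice, so they do not say how far Svil would vary between animals. The differences that involve the STIM1KO TAC array, 1.51- to 1.65-fold for Svil, Itgb1, Itgb5, Ilk and Dag1, stand beside SDs of 0.43 and 0.38 and were all under 2 of them. A single gene makes 5.26% of 19, so each of these shares lay within 2 genes of that of all genes. At 2-fold, Svil between the WT arrays was the 1 call among the 19, where 0.313% of all genes were called. No member reached 2-fold between the STIM1KO arrays (1.85% of all genes), the sham arrays (0.556%) or the TAC arrays (1.97%).

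The TAC response of STIM1KO less that of WT reached 1.5-fold in none of the 19, against 14.1% of all genes (8.15% higher and 5.94% lower), nor did it reach 2-fold (2.15% of all genes). The count at 1.5-fold depends on the scaling of the arrays. With each array centred on its median, and with values as deposited, 3 members (Itgb5, Svil and Dag1) were called. All 3 had the more negative response in STIM1KO. The shares of all genes called were 15.4% with centring and 14.5% with values as deposited. The single-probe SD of this difference of responses was 0.40. Of the probe pairs with a probe at 1.5-fold in it, both were there in the same direction in 1 of 19. The median difference of the 19 members stayed near that of all genes, at 0.05 against -0.01 for WT TAC against WT sham and 0.11 against -0.00 for STIM1KO TAC against STIM1KO sham. It was -0.06 against 0.00 between the sham arrays and -0.01 against 0.01 between the TAC arrays. With median centring 10 of the 19 were above 0 between the STIM1KO arrays, against 13 in the quantile-normalized values. The comparisons share arrays, each array entering 2 of the 4 pairs.

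**Figure D2:**
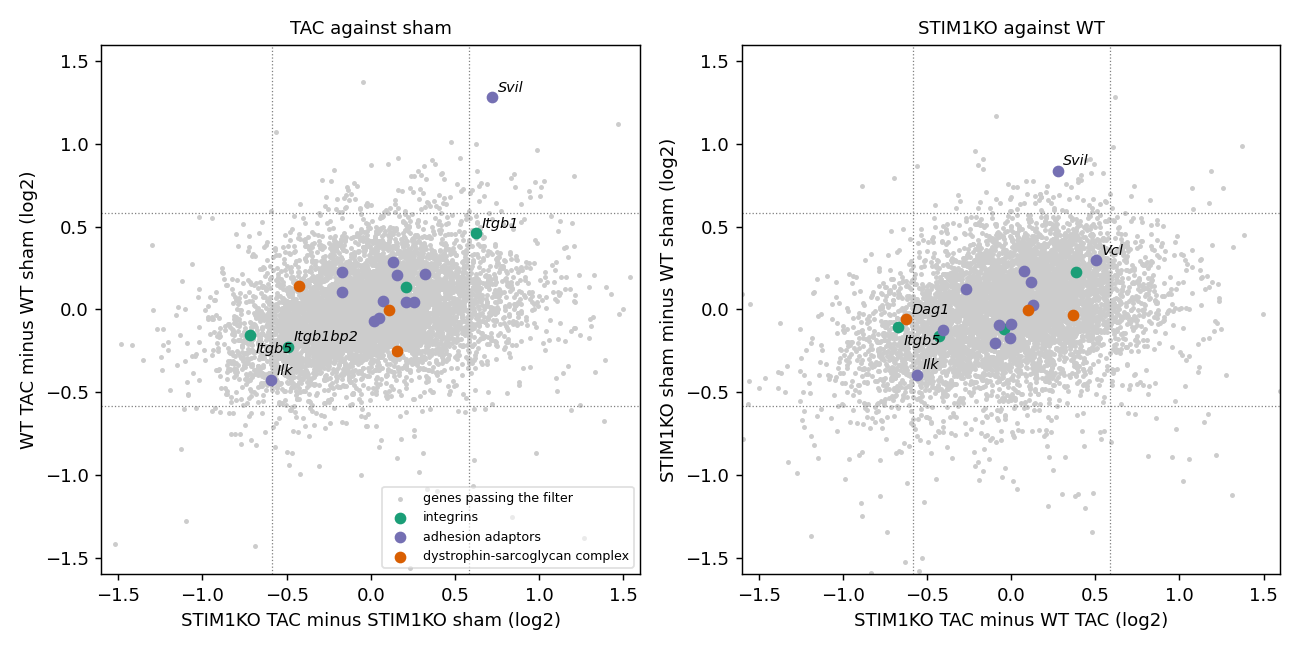
Log2 differences of the 19 members passing the filter (coloured by group) over all 7020 genes (grey), with dotted lines at 1.5-fold and axes limited to 1.6 (19 and 17 genes lie outside). Left, the response to TAC in STIM1KO (horizontal) and in WT (vertical), with Svil high in both; right, STIM1KO against WT after TAC (horizontal) and after sham surgery (vertical), with Itgb5 and Dag1 past the line after TAC and Svil past it after sham surgery.

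Among the integrin genes, Itgb1 and Itgb5 reached 1.5-fold, in opposite directions. Itgb1 encodes the beta-1 subunit, the main beta chain of heart muscle, and its intensity was 523 on STIM1KO TAC, 339 on STIM1KO sham, 400 on WT TAC and 290 on WT sham. Each TAC array was higher than both sham arrays. TAC against sham gave 0.63 in STIM1KO (1.54-fold) and 0.46 in WT (1.38-fold), differences at least matched in size by 11.7% and 6.20% of all genes. With median centring the difference in STIM1KO was 0.53, under 1.5-fold. STIM1KO was also above WT, by 0.39 after TAC and by 0.22 after sham surgery.

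Itgb5 encodes the beta-5 subunit, which pairs with alpha-v to bind vitronectin. It read 134 on STIM1KO TAC, 219 on STIM1KO sham, 213 on WT TAC and 236 on WT sham. STIM1KO TAC was low and the other 3 arrays lay within a narrow band. The differences were -0.72 for STIM1KO TAC against STIM1KO sham and -0.67 for STIM1KO TAC against WT TAC, while WT TAC against WT sham gave -0.15 and the sham arrays -0.11. Of all genes, 7.65% were at least as far apart between the STIM1KO arrays and 9.96% between the TAC arrays.

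Itgb1bp2 encodes melusin, a chaperone restricted to striated muscle that binds the tail of beta-1 integrin and is known for its part in the response of the heart to pressure load. Its intensity was 1539 on STIM1KO TAC, 2163 on STIM1KO sham, 2067 on WT TAC and 2416 on WT sham. It was thus lower on each TAC array than on the sham array of the same genotype, by -0.49 in STIM1KO and -0.23 in WT, opposite in sign to Itgb1 in both. Neither difference reached 1.5-fold. STIM1KO against WT gave -0.43 after TAC and -0.16 after sham surgery.

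Itga7, the laminin-binding alpha chain that pairs with beta-1 in muscle, varied little. It read 238 on STIM1KO TAC, 206 on STIM1KO sham, 245 on WT TAC and 223 on WT sham. Its TAC differences of 0.21 in STIM1KO and 0.13 in WT had the sign of those of Itgb1 and were smaller. The median difference of the 4 integrin genes passing the filter was -0.14 for STIM1KO TAC against STIM1KO sham and -0.01 for WT TAC against WT sham, with Itgb1 and Itga7 above 0 and Itgb5 and Itgb1bp2 below in both. The median of these 4 in WT was 0.01 with median centring and 0.04 with values as deposited.

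The other 6 integrin genes, Itga1, Itga5, Itga6, Itga9, Itgav and Itgb3, were below the filter level. In that dim range 31.4% of genes were at or beyond 1.5-fold between the STIM1KO arrays, 16.6% between the WT arrays, 31.1% between the TAC arrays and 19.5% between the sham arrays. The 11 dim members of all 3 groups gave 5, 1, 3 and 1 such differences in the same order of comparisons. In the STIM1KO response less the WT response they gave 6, against 37.4% of dim genes. Itga9, an alpha chain that pairs with beta-1, read 4.39 on STIM1KO TAC, 7.73 on STIM1KO sham, 8.26 on WT TAC and 9.89 on WT sham. Itgav read 8.44 on STIM1KO TAC, 13.6 on STIM1KO sham, 10.2 on WT TAC and 11.3 on WT sham, lowest on the array where its partner Itgb5 was lowest. Itgb3, which also pairs with alpha-v and is the beta chain of the platelet fibrinogen receptor, read 21.2 on STIM1KO TAC, 13.8 on STIM1KO sham, 12.2 on WT TAC and 12.8 on WT sham. It was thus highest on the array where Itgb5 and Itgav were lowest.

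Itga6, a laminin-binding chain, came nearest to the filter level, at 25.3 on STIM1KO TAC, 25.7 on STIM1KO sham, 31.4 on WT TAC and 27.7 on WT sham. Itga1, a collagen-binding chain, read 4.97 on STIM1KO TAC, 6.74 on STIM1KO sham, 7.06 on WT TAC and 5.50 on WT sham. Itga5, which with beta-1 forms the main fibronectin receptor, read 7.95 on STIM1KO TAC, 9.29 on STIM1KO sham, 9.21 on WT TAC and 6.80 on WT sham. In both genes STIM1KO sham and WT TAC lay together above the other arrays. Over all 10 integrin genes, 7 were below 0 between STIM1KO TAC and STIM1KO sham with a median of -0.33, against 0.01 for all 14039 genes, and 6 were below 0 with values as deposited. WT TAC against WT sham split them 5 and 5 with a median of 0.03, against -0.02.

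**Figure D3:**
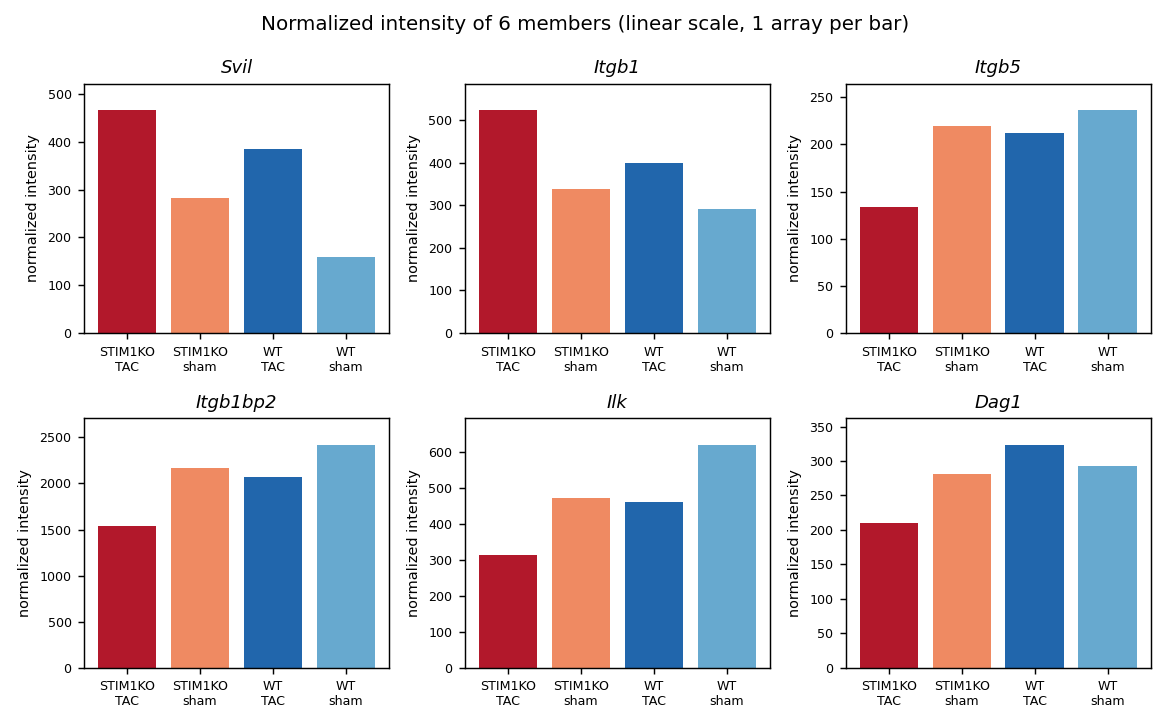
Normalized intensity (linear scale, starting at 0) of 6 members on the STIM1KO TAC, STIM1KO sham, WT TAC and WT sham arrays, 1 bar per array with no error bars. Svil and Itgb1 have their lowest bar on WT sham and their highest on STIM1KO TAC, and Itgb5, Itgb1bp2, Ilk and Dag1 have their lowest bar on STIM1KO TAC. Ilk has its highest bar, 619, on WT sham.

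Among the 12 adaptors passing the filter, Svil had the widest range. It read 466 on STIM1KO TAC, 282 on STIM1KO sham, 384 on WT TAC and 158 on WT sham. WT sham stood well below the other 3 arrays, and each TAC array was above both sham arrays. WT TAC was higher than WT sham by 1.28 (2.43-fold), a difference that 0.157% of all genes matched or exceeded. STIM1KO TAC was higher than STIM1KO sham by 0.72 (1.65-fold, 7.49% of genes). STIM1KO sham was higher than WT sham by 0.84 (1.79-fold, 1.08% of genes), and STIM1KO TAC differed from WT TAC by 0.28 (49.3% of genes). The STIM1KO response less the WT response was -0.56, just under 1.5-fold. The WT response and the sham comparison share the low WT sham array, so they are not independent readings.

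Ilk, integrin-linked kinase, is a pseudokinase that docks on the tail of beta integrins. Its arrays ran in the opposite order to those of Svil at the extremes, with 313 on STIM1KO TAC, 471 on STIM1KO sham, 460 on WT TAC and 619 on WT sham. WT sham was highest, STIM1KO TAC lowest, and STIM1KO sham and WT TAC lay together between them. TAC against sham gave -0.59 in STIM1KO and -0.43 in WT, and STIM1KO against WT gave -0.56 after TAC and -0.39 after sham surgery. Of all genes 14.0%, 7.93%, 16.4% and 13.9% were at least as far apart in these 4 comparisons. With median centring and with values as deposited, the difference between the TAC arrays passed 1.5-fold as well.

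No partner of Ilk in its complex had both its highest value on WT sham and its lowest on STIM1KO TAC. Parva (alpha-parvin) read 97.4 on STIM1KO TAC, 87.4 on STIM1KO sham, 89.7 on WT TAC and 77.8 on WT sham, the reverse order at the extremes. The range of Parva was 1.25-fold, which 71.1% of all genes matched or exceeded. Lims2, the PINCH protein that binds Ilk beside Lims1, stayed within 1.10-fold at 394 on STIM1KO TAC, 375 on STIM1KO sham, 414 on WT TAC and 399 on WT sham. Lims1, near the filter level, ranged from 29.3 on STIM1KO TAC to 35.3 on WT TAC. Parvb (beta-parvin) was dim, between 8.04 and 9.95. Rsu1, a partner of PINCH outside the list, differed by 0.07 in the STIM1KO response and -0.01 in the WT response.

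Vinculin (Vcl), which binds talin and actin and strengthens loaded adhesions, read 422 on STIM1KO TAC, 354 on STIM1KO sham, 297 on WT TAC and 288 on WT sham. Both STIM1KO arrays were above both WT arrays, by 0.51 after TAC and 0.30 after sham surgery, with 20.6% and 25.6% of all genes at least as far apart. TAC against sham gave 0.25 in STIM1KO and 0.05 in WT. Tln1, the talin that activates integrins, differed by at most 0.09 in any comparison. Tln2, the talin enriched in striated muscle, was lowest on STIM1KO sham at 28.9, with the other 3 arrays between 32.5 and 33.6.

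The remaining adaptors that passed the filter stayed under 1.5-fold in every comparison. Zyxin (Zyx), an adaptor that moves with load to actin fibres, read 115 on STIM1KO TAC, 92.0 on STIM1KO sham, 123 on WT TAC and 106 on WT sham, each TAC array above both sham arrays. Filamin A (Flna), an actin cross-linker, read 118 on STIM1KO TAC, 108 on STIM1KO sham, 112 on WT TAC and 91.9 on WT sham. Ptk2, focal adhesion kinase, read 52.6 on STIM1KO TAC, 59.3 on STIM1KO sham, 69.5 on WT TAC and 64.5 on WT sham, so both STIM1KO arrays were below both WT arrays, by -0.40 after TAC and -0.12 after sham surgery. Paxillin (Pxn), its docking partner, stayed between 56.3 and 61.7. Sorbs2, an adaptor with SH3 domains at the Z-disc, was close to the lowest values of the arrays, at 1.86 on STIM1KO TAC, 3.43 on STIM1KO sham, 2.58 on WT TAC and 1.62 on WT sham. Flnc, filamin C, had no probe paired in the annotation used here. Over the 12 adaptors passing the filter, 9 were above 0 in each response to TAC, with a median of 0.10 in STIM1KO and 0.08 in WT, against -0.00 and -0.01 for all genes. With median centring 7 of 12 were above 0 in STIM1KO and 9 of 12 in WT. Between genotypes, 5 of 12 were above 0 after TAC and 6 of 12 after sham surgery.

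In the dystrophin-sarcoglycan complex the dystroglycan gene Dag1 was low on STIM1KO TAC. Dag1 encodes both alpha- and beta-dystroglycan, the laminin receptor of the complex, and read 210 on STIM1KO TAC, 282 on STIM1KO sham, 323 on WT TAC and 293 on WT sham. The differences were -0.62 for STIM1KO TAC against WT TAC (1.54-fold lower, 12.3% of genes) and -0.43 for STIM1KO TAC against STIM1KO sham (28.7%). WT TAC against WT sham gave 0.14 and STIM1KO sham against WT sham -0.06. The STIM1KO response less the WT response was -0.56.

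Sgca, the alpha-sarcoglycan of striated muscle, was level, at 417 on STIM1KO TAC, 388 on STIM1KO sham, 389 on WT TAC and 389 on WT sham. Dtna, alpha-dystrobrevin, a dystrophin-related partner of the syntrophins, read 45.0 on STIM1KO TAC, 40.5 on STIM1KO sham, 34.9 on WT TAC and 41.4 on WT sham. The median of these 3 genes was 0.11 for STIM1KO TAC against STIM1KO sham and -0.00 for WT TAC against WT sham, and with median centring it was -0.00 and 0.05. With the filter at the 75th percentile, which leaves Dag1 and Sgca, the median in STIM1KO was -0.16, so its direction is not settled.

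Sgcd, delta-sarcoglycan, was below the filter level on average and stood out on STIM1KO TAC, with 32.2 there, 17.5 on STIM1KO sham, 15.2 on WT TAC and 18.5 on WT sham. It differed by 0.88 between the STIM1KO arrays and by 1.09 (2.12-fold) between the TAC arrays, sizes that 14.0% and 6.58% of genes below the filter level matched or exceeded. Sntb1, beta-1-syntrophin, read 9.62 on STIM1KO TAC, 6.42 on STIM1KO sham, 7.59 on WT TAC and 8.71 on WT sham. Utrn, utrophin, the relative of dystrophin, was at 6.01 on STIM1KO TAC, 4.29 on STIM1KO sham, 5.98 on WT TAC and 5.85 on WT sham. Dmd, dystrophin itself, was at the bottom of the scale with deposited values of 3.0 on STIM1KO TAC, 2.3 on WT TAC and 2.2 on WT sham and an empty cell on STIM1KO sham, and no comparison was made. Sgcb, beta-sarcoglycan, had no probe paired in the annotation used here. Among the 6 measured genes, all except Dag1 were above 0 between STIM1KO TAC and STIM1KO sham, with a median of 0.32 against 0.01 for all 14039 genes. All 6 were below 0 between STIM1KO sham and WT sham, with a median of -0.07 against -0.01. Sgca was the nearest to 0 there, at -0.01, and with median centring 5 of the 6 were below 0 between the sham arrays and 4 of the 6 above 0 between the STIM1KO arrays.

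**Figure D4:**
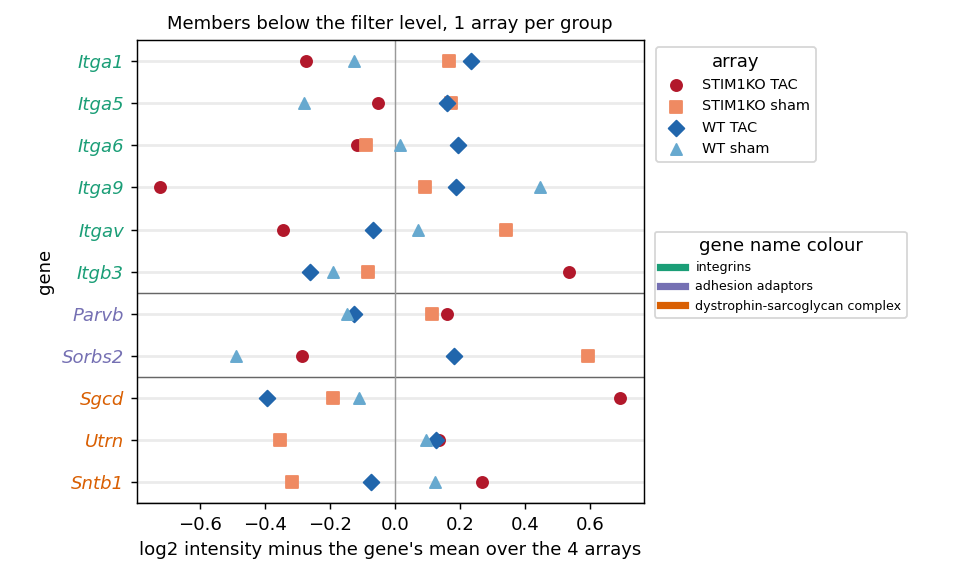
Log2 intensity minus the gene's own mean over the 4 arrays (horizontal axis) for the 11 members below the filter level, with 1 marker per array and gene names coloured by group. STIM1KO TAC is highest for Sgcd and Itgb3 and lowest for Itga9 and Itgav, in a range of intensity where 31.4% of all genes differ by 1.5-fold between the STIM1KO arrays.

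The promoters of the members called at 1.5-fold are shown where the reference table could be used for them, as the sequences upstream of the genes whose readings differed. RefSeq sequences of build GRCm38.p6 matched 21 of the 33 members, each covering 250 bases before and 50 after a transcription start. They are printed 5′ to 3′ on the strand of the gene, the first listed start being used for Ilk and Dag1, which have 2. Capitals mark every match, on either strand, to 3 motifs: the M-CAT motif CATTCC (bound by TEAD factors), the NFAT core GGAAA (the core of sites of the calcium-regulated NFAT factors) and the GC box GGGCGG. Itgb1 lies at chr8:128685404-128685703 (plus strand), Itgb5 at chr16:33829415-33829714 (plus strand), Ilk at chr7:105736340-105736639 (plus strand) and Dag1 at chr9:108263909-108264208 (minus strand).
Itgb1: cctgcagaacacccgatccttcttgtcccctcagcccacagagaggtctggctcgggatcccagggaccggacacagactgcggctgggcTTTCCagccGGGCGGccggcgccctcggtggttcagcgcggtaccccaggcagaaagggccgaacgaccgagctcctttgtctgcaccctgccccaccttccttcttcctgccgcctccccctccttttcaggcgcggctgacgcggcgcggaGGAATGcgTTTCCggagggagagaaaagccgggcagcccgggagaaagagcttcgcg
Itgb5: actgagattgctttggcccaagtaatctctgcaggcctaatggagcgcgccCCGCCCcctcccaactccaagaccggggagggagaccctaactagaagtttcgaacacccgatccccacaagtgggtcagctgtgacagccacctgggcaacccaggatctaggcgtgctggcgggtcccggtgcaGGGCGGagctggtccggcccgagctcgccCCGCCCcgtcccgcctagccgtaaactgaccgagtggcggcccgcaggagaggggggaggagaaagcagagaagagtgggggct
Ilk: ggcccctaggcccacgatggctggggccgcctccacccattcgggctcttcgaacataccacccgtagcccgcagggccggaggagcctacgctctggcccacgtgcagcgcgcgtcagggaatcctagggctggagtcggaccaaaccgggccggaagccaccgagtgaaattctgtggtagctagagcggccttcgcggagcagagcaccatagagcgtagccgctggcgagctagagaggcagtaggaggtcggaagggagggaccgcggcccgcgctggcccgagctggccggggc
Dag1: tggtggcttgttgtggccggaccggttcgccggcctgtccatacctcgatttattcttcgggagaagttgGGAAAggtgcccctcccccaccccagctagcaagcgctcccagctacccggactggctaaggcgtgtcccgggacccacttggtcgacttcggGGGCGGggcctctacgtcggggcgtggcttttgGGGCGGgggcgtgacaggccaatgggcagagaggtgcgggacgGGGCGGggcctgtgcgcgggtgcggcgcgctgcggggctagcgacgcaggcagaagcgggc
The Itgb1 promoter held 1 M-CAT match, which overlaps no other match, 2 of the NFAT core and 1 GC box. The Itgb5 promoter held 3 GC boxes, the Dag1 promoter 3 GC boxes and 1 NFAT core, and the Ilk promoter none of the 3 motifs. Of all 32851 promoters of this length, 14.7% held an M-CAT match, 61.3% an NFAT core and 35.7% a GC box. The CArG box, the site of serum response factor, was in 1.63% of all promoters and in none of these 4. The 4 promoters shown held 65.7% to 69.7% G and C, against a median of 52.7% over all promoters. Among the first-listed promoters of the 21 members the CArG box was in 2, those of Vcl and Dmd. An M-CAT match was in 5 of the 21, an NFAT core in 12 and a GC box in 13. These matches are a description of the letters.

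Other genes of the same pathways were read from lists of their own. Of 17 other integrin subunits, 13 were measured on every array. The 2 above the filter level were Itga8 and Itga11, neither at 1.5-fold in any comparison. Of 40 other adhesion adaptors, 26 passed the filter. None of these was at 1.5-fold between the WT arrays, against 2.85% of all genes. Between the STIM1KO arrays 2 of 26 were lower and none higher, against 7.11% and 7.31% of all genes. Tns1, tensin 1, an actin-binding adaptor of integrin tails, differed by -0.77 between the STIM1KO arrays and by -0.77 between the TAC arrays. Between the TAC arrays 7 of 26 were lower at 1.5-fold and none higher, against 8.22% and 6.31% of all genes. The farthest was Vim at -0.98, which encodes vimentin, an intermediate filament protein counted in this list. Next were Tgfb1i1 (Hic-5, a paxillin relative) at -0.86, Tns1 at -0.77 and Lpp at -0.75.

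Of 18 other genes of the dystrophin complex and of dystroglycan processing, 7 passed the filter. Cav3, muscle caveolin, which binds beta-dystroglycan, read 444 on STIM1KO TAC, 705 on STIM1KO sham, 762 on WT TAC and 698 on WT sham. It differed by -0.67 between the STIM1KO arrays and -0.78 between the TAC arrays, the same single low array as Dag1. That array held the lowest value of 36.2% of all genes passing the filter. Trim72, a membrane repair protein of muscle, differed by -0.82 between the STIM1KO arrays and 0.69 between the sham arrays, and Pomgnt1, which glycosylates dystroglycan, by -0.65 between the sham arrays. Sspn, sarcospan, differed by 0.00 between the STIM1KO arrays and 0.03 between the WT arrays.

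Of 20 matrix ligands of these receptors, 12 passed the filter and 11 of them were below 0 between STIM1KO sham and WT sham, with a median of -0.35. The 3 at 1.5-fold there were lower, against 2.74% of all genes: Nid1 at -0.73, Col4a2 at -0.66 and Col1a2 at -0.63. Between the STIM1KO arrays 9 of 12 were above 0, with a median of 0.30, led by Col1a2 at 1.30, Nid2 at 0.82 and Nid1 at 0.81. Agrn, agrin, a ligand of dystroglycan, differed by -0.93 between the STIM1KO arrays and -0.82 between the TAC arrays, again with its lowest value, 21.7, on STIM1KO TAC. Lamb2, the laminin beta-2 chain of muscle basement membrane, read 1246 on STIM1KO TAC, 1653 on STIM1KO sham, 1868 on WT TAC and 2325 on WT sham, with WT sham highest and STIM1KO TAC lowest as for Ilk. Among all genes passing the filter, STIM1KO TAC held the lowest value of 36.2% and WT sham the highest of 26.5%.

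Many of these genes are also expressed by other cells of the ventricle, and in such bulk RNA fewer cells of a type and less RNA per cell cannot be told apart. Of 10 endothelial markers, all were measured on every array and 8 passed the filter. Their summed intensity was 2411 on STIM1KO TAC, 2771 on STIM1KO sham, 3538 on WT TAC and 3845 on WT sham, and all 8 were below 0 between the TAC arrays with a median of -0.65. The 9 fibroblast markers summed to 3345 on STIM1KO TAC, 4257 on STIM1KO sham, 4860 on WT TAC and 5393 on WT sham. Both sums were lowest and highest on the same arrays as Ilk, Itgb5 and Itgb1bp2. The median fibroblast marker, however, differed by -0.02 between the STIM1KO arrays and -0.11 between the TAC arrays, with 4 of 9 above 0 in the second, and 1 of 9 at 1.5-fold there, Dcn at -1.01. The 8 smooth muscle and pericyte markers, of which 5 passed the filter, summed to 1420 on STIM1KO TAC, 2094 on STIM1KO sham, 1713 on WT TAC and 1968 on WT sham. Between the TAC arrays 5 of these 8 were above 0, with a median of 0.07 and Rgs5 at -1.23. Of the 5 passing the filter, 3 were below 0 with a median of -0.23, the direction of the sum. The direction of most markers in this list thus changed with the filter. The cardiac muscle markers summed to 200444 on STIM1KO TAC, 185706 on STIM1KO sham, 178639 on WT TAC and 171391 on WT sham. Of the 8 passing the filter, 4 were above 0 and 4 below between the STIM1KO arrays, and 5 were below 0 between the TAC arrays with a median of -0.08. Tnnt2, given above, only just reached 1.5-fold in both of these comparisons (0.5853, with the threshold at 0.5850), and no other passing cardiac marker reached it. Its equal readings on STIM1KO sham and WT TAC are the value that quantile normalization gives to a single rank.

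Macrophage markers (10 of 11 measured, 8 passing) summed to 2684 on STIM1KO TAC, 2075 on STIM1KO sham, 2489 on WT TAC and 2370 on WT sham, with a median over the 8 of 0.42 between the STIM1KO arrays and 0.09 between the TAC arrays. The 4 platelet markers, 2 of them passing, summed to 336 on STIM1KO TAC, 339 on STIM1KO sham, 536 on WT TAC and 440 on WT sham, while Itgb3 was highest on STIM1KO TAC. No marker was at 0 on any array. The part of these cell types in the differences of the integrin, adhesion and dystrophin complex genes was not tested.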

How the data were processed

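The authors deposited 1 linear intensity per probe for each of 4 arrays. Per the labels' protocols, amplified amino allyl RNA was labelled with Cy5; the sources used here name no scanner, background correction or rule for empty cells. The deposited intensity values had a median of about 20.0 on each array. Of 23473 probes, 19607 had a value on all arrays (21115 to 21782 per array). Symbols came with 16631 probes and were updated through RefSeq synonyms (GRCm38.p6, names only).

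Values were taken to log2 and quantile-normalized over the 19607 probes (Python 3.11.15, numpy 2.4.6, pandas 2.3.3); the brightest probe stood for a gene. Genes passed the filter when their mean over the arrays was no lower than the median gene's, 4.87. Groups came from the sample titles. With 1 array per group no test was made; precision is limited by the number of arrays. A call is a difference at or beyond 1.5-fold. All 33 members are accounted for, with values on each array for those at 1.5-fold; of other lists, up to 4 genes with the largest differences are named, with Rsu1, Sspn, Lamb2 and the markers Tnnt2, Ryr2, Dcn and Rgs5 added after their values were seen. Motifs were searched in 300-base RefSeq promoters. The member list, the other lists and the motifs were drawn up with earlier results of these data known; the rule that matched members to probes uses no measured value. An additive fit of genotype and operation over the 4 arrays, which would take the difference of responses as error, was not run. The steps were tested on simulated data. The planted changes there were larger than those of the called members and the noise was below that of the probe pairs. Recovery of smaller changes was not tried. Alternatives were median centring, values as deposited, no filter, a stricter filter (75th percentile), 5.49 added before log2, the mean over probes and a 2-fold threshold.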

Additional observations from a re-analysis of the deposited data

Results flagged for a closer look

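In 6 members the response to TAC had opposite signs in STIM1KO and WT and the responses differed by at least 1.5-fold, and all 6 were below the filter level. The STIM1KO response less the WT response was -1.55 for Sorbs2 (-0.88 in STIM1KO and 0.67 in WT), 1.17 for Sgcd (0.88 and -0.28) and -0.80 for Itga1 (-0.44 and 0.36). It was 0.78 for Sntb1 (0.58 in STIM1KO and -0.20 in WT), 0.69 for Itgb3 (0.62 and -0.07) and -0.66 for Itga5 (-0.22 and 0.44). With 1 array per group the difference was not tested, and among all genes below the filter level 37.4% had responses differing by 1.5-fold. That share does not require opposite signs. The share of genes meeting both conditions was not computed, so the count of 6 has no matching rate beside it.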

How the results depend on the processing

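With 1 array per group and a single probe per member, no result has a replicate. No paired analysis was possible because each group holds 1 array. Of the 7 alternatives, the changes of filter, the mean over probes and the 2-fold threshold leave the members' differences as they were by construction. Only median centring, values as deposited and the offset could alter a sign. They moved the called differences by far less than 1.5-fold, and no called member changed sign. The number of called members was 1 for WT TAC against WT sham, 4 for STIM1KO TAC against STIM1KO sham, 1 for STIM1KO sham against WT sham, 2 for STIM1KO TAC against WT TAC and 0 for the difference of responses. With no filter on dim genes, and 30 members in place of 19, these became 2, 9, 2, 5 and 6. The shares of all genes were 9.71%, 22.9%, 11.7%, 22.8% and 25.7% in the same order. At a 2-fold threshold the count for WT TAC against WT sham stayed at 1 (Svil), and those for the STIM1KO, sham and TAC pairs were 0, 0 and 0, against 1.85%, 0.556% and 1.97% of all genes. With each array centred on its median, and with values as deposited, the difference of responses gave 3 and 3, against 15.4% and 14.5% of all genes. The centring moved the median of all genes in the difference of responses to -0.10. Itgb1 between the STIM1KO arrays was 0.53 with centring, and Ilk was -0.58, just under the threshold, with the offset. The 75th percentile filter and the mean over probes moved no count by over 1.5 times, and since each member has 1 probe averaging leaves member values as they were by construction. The median of the dystrophin-sarcoglycan genes between the TAC arrays, 0.10, was -0.01 with centring and -0.26 with the 75th percentile filter, and that between the STIM1KO arrays, 0.11, was -0.00 and -0.16, so neither direction is settled. The cause of these changes was not tested.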
